A study of Homo sapiens with 8 samples.

Results

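C16orf72 and HUWE1 are a pair of genes whose products act together in the ubiquitin system. HUWE1 is a very large HECT-type E3 ubiquitin ligase, an enzyme that takes ubiquitin from an E2 enzyme onto its own catalytic cysteine and then passes it to a substrate. Proteins described as its substrates include the anti-apoptotic protein MCL1 and the transcription factor MYC. C16orf72, now named HAPSTR1 and also called TAPR1, is a small stress-response protein that binds HUWE1 and has been linked to the nuclear location of HUWE1. Both were selected because of how their knockouts behaved in these same libraries, so the values below describe the pair, no p is given for them, and counts of their guides past a threshold are no evidence.

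The knockouts were counted in PC9 cells, a line of non-small cell lung cancer that carries an activating EGFR mutation, in which Cas9 was expressed and the pooled genome-wide guide library TKOv3 was introduced. Each cell carries as a rule 1 guide RNA (sgRNA), and the reads of a guide inserted in genomic DNA stand in for the number of cells with that knockout. The groups were cells exposed for 72 h to 10 µM erlotinib, cells exposed for 72 h to 0.1 µM osimertinib, cells kept for 72 h without drug (untreated, in vehicle) and cells taken when the drugs were added (T0). Erlotinib and osimertinib are both inhibitors of the EGFR kinase, and their doses differ. Each group had 2 libraries, all from the same line and the same guide pool. According to the methods, live cells were collected and untreated cultures were passaged after the first day. The labels describe infection in duplicate, but no source says if a group's cultures stayed separate from that point, and some of the spread between libraries may be technical. An arm given more osimertinib was not analysed here.

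The rule took every guide assigned to C16orf72 or HUWE1, which gave 8 guides, 4 for each gene, of 71086 guides and 18052 gene names in use. The guides of C16orf72 were TKOV3_07059 to TKOV3_07062 and those of HUWE1 were TKOV3_28290 to TKOV3_28293, and they are called guides 1 to 4 of each gene in that order. Libraries held between 32093833 and 39197691 reads. The 7 guides kept after the filter on low counts had between 286 and 1088 reads in a library, at which counting alone gives a coefficient of variation of 5.91% to 3.03%. Guide 4 of C16orf72 had 0 and 1 reads under erlotinib, 1 and 1 under osimertinib, 0 and 0 in untreated cells and 0 and 2 at T0. It was nearly missing before any drug was added and was left out, so C16orf72 is described by 3 guides and HUWE1 by 4.

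Counts below are normalised to the non-targeting guides, which match no site in the genome, and the 2 values of a group are those of its replicates 1 and 2. Guide 1 of C16orf72 had normalised read counts of 480.3 and 506.2 under erlotinib and 525.5 and 643.7 under osimertinib, against 341.9 and 332.5 in untreated cells and 428.0 and 339.2 at T0. Guide 2 of C16orf72 had 749.3 and 800.9 under erlotinib and 935.8 and 1001.9 under osimertinib, against 511.9 and 589.4 in untreated cells and 724.7 and 835.9 at T0. Guide 3 of C16orf72 had 715.5 and 789.1 under erlotinib and 868.9 and 915.3 under osimertinib, against 580.3 and 577.2 in untreated cells and 720.5 and 720.8 at T0. For all 3 guides, both osimertinib libraries stood above every other library and both erlotinib libraries stood above both untreated libraries. The erlotinib libraries were above T0 without overlap for guide 1 and overlapped T0 for guides 2 and 3.

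The guides of HUWE1 were placed differently with respect to T0. Guide 1 of HUWE1 had normalised read counts of 593.5 and 600.1 under erlotinib and 588.7 and 502.8 under osimertinib, against 389.2 and 458.6 in untreated cells and 682.3 and 723.8 at T0. Guide 2 of HUWE1 had 457.4 and 443.1 under erlotinib and 351.9 and 394.1 under osimertinib, against 287.6 and 289.6 in untreated cells and 490.5 and 477.5 at T0. Every library with drug lay between the untreated and the T0 libraries for both of these guides. Guide 3 of HUWE1 had 663.2 and 706.9 under erlotinib and 672.6 and 594.9 under osimertinib, against 546.1 and 532.4 in untreated cells and 695.0 and 732.9 at T0. Guide 4 of HUWE1 had 827.7 and 797.7 under erlotinib and 834.0 and 801.1 under osimertinib, against 564.2 and 659.4 in untreated cells and 857.1 and 849.0 at T0. Untreated libraries were lowest for all 4 HUWE1 guides, and the only overlap of a drug with T0 was guide 3 under erlotinib.

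The raw share of reads, which is scaled to the total reads of a library and not to the non-targeting guides, gave the same order among the groups collected at 72 h. The kept guides of C16orf72 took 55.6 and 60.1 reads per 1000000 under erlotinib and 67.4 and 73.0 under osimertinib, against 40.9 and 43.1 in untreated cells and 47.9 and 47.9 at T0. Exact binomial 95% intervals of these shares ran from 64.8 to 75.7 over the osimertinib libraries and from 38.8 to 45.3 over the untreated libraries. Those of HUWE1 took 72.7 and 73.0 reads per 1000000 under erlotinib and 70.8 and 65.3 under osimertinib, against 50.9 and 55.8 in untreated cells and 69.6 and 70.3 at T0. By raw share HUWE1 knockouts were thus slightly above T0 under erlotinib, whereas relative to non-targeting guides they were slightly below it. The amplification used no molecular identifiers, so these intervals cover counting error only.

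To compare the genes, the log2 fold change (L2FC) of each guide was fitted with edgeR over all 8 libraries, and the median over the kept guides was used as the gene value, given ± the SD between guides. A value of 0 is that of the non-targeting guides. A guide was called when it passed an adjusted p of 0.05 (edgeR quasi-likelihood test, Benjamini-Hochberg adjustment over all guides), and a gene was called when at least 2 guides passed in 1 direction and none in the other. The share of all targeting guides or genes that did so is printed beside each count as background. Some counts below use an unadjusted p of 0.05 instead. Against untreated cells, 9931 of 67531 kept guides passed it under erlotinib and 12831 under osimertinib, in either direction. Under osimertinib against T0, 25314 passed it. As the rule rests on these contrasts, the counts of called member guides are descriptive only.

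Without drug, both knockouts were rarer after 72 h than at T0, and HUWE1 more so. C16orf72 had an L2FC of -0.32 ± 0.16 (SD, n = 3 guides) and HUWE1 of -0.60 ± 0.17 (SD, n = 4 guides) in untreated cells against T0, beside a median of -0.15 over 17761 genes. Single guides had between -0.50 and -0.18 for C16orf72 and between -0.75 and -0.41 for HUWE1. Of the C16orf72 guides 2 of 3 were called lower and of the HUWE1 guides 4 of 4, where 19% of all targeting guides were. The same guides had both untreated libraries below both T0 libraries, as did 57.8% of all targeting guides. HUWE1 was the 936th gene from the bottom and C16orf72 the 2620th, and both are among the 17.5% of genes called lower. Because most genes were below the non-targeting guides at 72 h, scaling over all guides moved the median of all genes to 0.01 and gave -0.15 for C16orf72, with 1 guide called, and -0.44 for HUWE1. Leaving out any single T0 or untreated library also left 1 called guide of C16orf72.

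Under erlotinib the pair had similar values relative to untreated cells. C16orf72 had an L2FC of 0.49 ± 0.09 (SD, n = 3 guides), a 1.41-fold higher abundance, and HUWE1 of 0.45 ± 0.13 (SD, n = 4 guides), a 1.37-fold higher abundance, with a median of -0.003 over all genes. They were the 120th and the 178th gene from the top. Guide values ran from 0.38 to 0.55 for C16orf72 and from 0.35 to 0.64 for HUWE1. Of the guides of each gene 3 were called higher, where 1.73% of all targeting guides were, and the remaining one was guide 3 of HUWE1 (0.35 ± 0.11, SE). All 7 guides had both erlotinib libraries above both untreated libraries, as did 22.4% of all targeting guides, and both are among the 1.3% of genes called higher. The calls rested on few libraries: without untreated replicate 1 or without erlotinib replicate 2 there were 0 called guides of C16orf72 (3 at an unadjusted threshold of 0.05 and 3 by DESeq2 with all libraries), without untreated replicate 2 there was 1, and without untreated replicate 1, erlotinib replicate 1 or erlotinib replicate 2 there was 1 called guide of HUWE1.

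Under osimertinib the pair stood apart from each other. C16orf72 had an L2FC of 0.79 ± 0.10 (SD, n = 3 guides) relative to untreated cells, a 1.73-fold higher abundance. It was the 3rd gene from the top among the 17761 genes, and NF2, an upstream component of the Hippo pathway, had a higher value (1.23 ± 0.18). HUWE1 had an L2FC of 0.37 ± 0.08 (SD, n = 4 guides), a 1.29-fold higher abundance, and was the 190th gene from the top. All 3 guides of C16orf72 were called higher, from 0.62 to 0.81, where 2.13% of all targeting guides were, and the count stayed at 3 without any single library. Of the HUWE1 guides, guide 4 (0.42 ± 0.10, SE) was the only one called, although all 4, from 0.23 to 0.42, had both osimertinib libraries above both untreated libraries, as did 21.1% of all targeting guides. C16orf72 is among the 1.18% of genes called higher, and HUWE1 is not in this fit or with DESeq2, but it was called higher with scaling over all guides (2 guides), with counts summed per gene and at the unadjusted threshold, so the pair does not differ in its call under every setting. The HUWE1 count was 0 without untreated replicate 1 (4 guides at an unadjusted threshold of 0.05 and 1 by DESeq2 with all libraries) and 2 without osimertinib replicate 2 or erlotinib replicate 1.

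Measured from T0 instead of from untreated cells, with the same osimertinib libraries, C16orf72 and HUWE1 lay on different sides of the non-targeting guides under osimertinib. C16orf72 had an L2FC of 0.31 ± 0.17 (SD, n = 3 guides), was the 43rd gene from the top and had 3 of 3 guides called higher, where 0.699% of all targeting guides were. It is among the 0.411% of genes called higher and HUWE1 among the 27% called lower. HUWE1 had an L2FC of -0.27 ± 0.15 (SD, n = 4 guides) and 2 of 4 guides called lower, where 25.8% of all targeting guides were, beside a median of -0.16 over all genes. The 3 guides of C16orf72 had both osimertinib libraries above both T0 libraries, as did 6.3% of all targeting guides, and the 4 guides of HUWE1 had them below, as did 55.8%. Guides 1 and 2 of HUWE1 had the lowest values (-0.37 and -0.38), and guide 4 was close to 0 (-0.06). With scaling over all guides, C16orf72 had 0.49 and 3 called guides, and HUWE1 had -0.09 and 0 called guides (2 at an unadjusted threshold of 0.05 and 2 by DESeq2 with the first scaling). Leaving out T0 replicate 1 or osimertinib replicate 2 left 1 called guide of C16orf72. Leaving out either T0 library left 0 called guides of HUWE1 and leaving out either osimertinib library left 1, and the HUWE1 value was -0.17 without osimertinib replicate 2.

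Under erlotinib both were close to their T0 level when scaled to the non-targeting guides. C16orf72 was the 423rd gene from the top and HUWE1 the 4746th. C16orf72 had an L2FC of 0.06 ± 0.20 (SD, n = 3 guides) against T0 and HUWE1 of -0.09 ± 0.08 (SD, n = 4 guides), where the median of all genes was -0.16. Guide 1 of C16orf72 (0.36 ± 0.13, SE) was called higher, where 0.205% of all targeting guides were, and guides 2 and 3 had -0.01 and 0.06. It was also the one C16orf72 guide with both erlotinib libraries above both T0 libraries, as had 4.72% of all targeting guides, while 3 of 4 HUWE1 guides had them below, as had 58.6%. None of the HUWE1 guides was called by edgeR or DESeq2, where edgeR called 19.9% of all targeting guides lower. At an unadjusted threshold of 0.05, 1 passed on the lower side, where 22458 of 67531 kept guides passed in either direction. The value of C16orf72 was -0.01 without erlotinib replicate 2 and 0.15 without erlotinib replicate 1, and its called guide was lost without T0 replicate 2 or either erlotinib library. With scaling over all guides C16orf72 was at 0.23 and HUWE1 at 0.08, so the side of 0 on which HUWE1 lay depended on the scaling.

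Set directly against each other, at doses that differ, the drugs showed opposite signs for the pair. C16orf72 had an L2FC of -0.25 ± 0.04 (SD, n = 3 guides) in erlotinib relative to osimertinib and was the 105th gene from the bottom. All 3 of its guides, from -0.32 to -0.25, had both erlotinib libraries below both osimertinib libraries, as did 17.2% of all targeting guides. None of them was called by edgeR or DESeq2, where edgeR called 0.0964% of all targeting guides lower. At an unadjusted threshold of 0.05, 2 passed, where 7084 of 67531 kept guides passed in either direction. With counts summed per gene C16orf72 was called lower (-0.28), among 167 genes called lower in that fit. HUWE1 had an L2FC of 0.12 ± 0.11 (SD, n = 4 guides), the 2375th gene from the top. Guides 1 and 2 of HUWE1 had both erlotinib libraries above both osimertinib libraries, as did 20.4% of all targeting guides, and guides 3 and 4 overlapped. None of its guides was called by edgeR or DESeq2, where edgeR called 0.236% of all targeting guides higher. At the unadjusted threshold 1 passed, and with counts summed per gene HUWE1 was not called. The value of C16orf72 was -0.37 without osimertinib replicate 1, and that of HUWE1 was 0.02 without osimertinib replicate 2 and 0.20 without osimertinib replicate 1.

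The levels of the pair in single libraries followed the same order. Relative to the T0 mean, the log2 abundance of C16orf72 was -0.01 and 0.15 under erlotinib, 0.28 and 0.36 under osimertinib, and -0.32 and -0.32 in untreated cells. That of HUWE1 was -0.09 and -0.09 under erlotinib, -0.16 and -0.28 under osimertinib, and -0.68 and -0.52 in untreated cells. The pooled SD between libraries of a group was 0.06 for C16orf72 and 0.07 for HUWE1. In order of level, C16orf72 ran from untreated through T0 and erlotinib to osimertinib, with T0 overlapping untreated on guide 1 and erlotinib on guides 2 and 3. HUWE1 ran from untreated through osimertinib and erlotinib to T0, with osimertinib and erlotinib overlapping on guides 3 and 4 and erlotinib and T0 on guide 3.

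The genes nearest to each of the pair were found from the distance between profiles over the 6 libraries at 72 h, among 17273 genes with at least 3 kept guides. Nearest to C16orf72 were SH3BP4 (distance of 0.20 on the log2 scale, Pearson r of 0.97), WDR20, PPP2R4, DCUN1D1 and KMT2C. WDR20 is a cofactor of deubiquitinating enzymes, DCUN1D1 promotes the neddylation of cullins, and KMT2C is a histone methyltransferase. Nearest to HUWE1 were DNAJA3 (distance of 0.16, r of 0.96), a mitochondrial co-chaperone, PSMG4, a proteasome assembly chaperone, EIF5, a translation initiation factor, CINP and COX14. HUWE1 was the 11361st gene by distance from C16orf72 (0.92, r of 0.74), and C16orf72 the 14988th from HUWE1. These correlations are over 6 libraries that fall into 3 groups and share the scaling to the same non-targeting guides.

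The pair was then set beside 4 lists of genes chosen by role, which do not contain C16orf72 or HUWE1. With the guide-level edgeR fit scaled to the non-targeting guides, no listed gene was called higher in any comparison, where the background of genes called higher was 0% in untreated cells, 0.135% under erlotinib and 0.411% under osimertinib against T0, and 0.0676% in erlotinib against osimertinib. With scaling over all guides, ZBTB17 was called higher under osimertinib against untreated cells and UBE2D1 under osimertinib against T0. With counts summed per gene, each list had 0 to 2 genes called higher and 1 to 4 called lower under each drug against untreated cells. That fit called 1008 of all genes higher and 896 lower under erlotinib, and 1241 and 1635 under osimertinib. Against untreated cells, the background of genes called was 1.3% higher and 0.518% lower for erlotinib and 1.18% higher and 1.5% lower for osimertinib. The share of all genes that pass at an unadjusted threshold was not counted, so genes named at that threshold are descriptive only. The E1 and E2 enzymes, which activate ubiquitin and hand it to HECT ligases, had 0 of 11 genes called under either drug, with medians of 0.06 under erlotinib and 0.07 under osimertinib. DESeq2 also called 0, and an unadjusted threshold of 0.05 gave UBE2L3 higher and UBA1 and UBE2L6 lower under erlotinib, and UBE2D1 higher and UBE2D4, UBE2E1 and UBE2L6 lower under osimertinib. In untreated cells against T0, UBA1, the main ubiquitin-activating enzyme, had -0.61 ± 0.22 (SD, n = 4 guides), close to the value of HUWE1. It was called lower with UBA6 and UBE2L3, which makes 3 of 11 genes, where 17.5% of all genes were called lower. None of these 3 calls held with scaling over all guides.

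Of the other HECT ligases, 26 of 27 listed genes could be described. Against untreated cells 0 were called under either drug by the guide-level edgeR fit or DESeq2. Their medians were 0.02 under erlotinib and -0.01 under osimertinib, and the highest values were 0.13 for SMURF1, which acts on TGF-beta and BMP signalling, under erlotinib and 0.25 for HERC6 under osimertinib. Both were below the values of the pair. At an unadjusted threshold of 0.05, HECW1 was among the genes lower under erlotinib, and HERC6 and TRIP12 were higher and HECW1 lower under osimertinib. In untreated cells against T0, 4 of the 26 genes were called lower, where 17.5% of all genes were. Among them were HECTD3 (-0.38 ± 0.15), SMURF1 (-0.27 ± 0.30) and UBE3A (-0.18 ± 0.12). Against T0, no call of this list held with scaling over all guides.

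The quality control ligases and partners, which mark misfolded or orphan proteins, had medians of 0.03 under erlotinib and 0.04 under osimertinib. Of their 13 genes 0 were called under either drug by the guide-level edgeR fit or DESeq2. An unadjusted threshold of 0.05 gave NEMF and SYVN1 lower under erlotinib, and BAG6 higher and SYVN1 lower under osimertinib. In untreated cells against T0, UBR4, a very large ligase of the N-degron pathway, had -0.59 ± 0.13 (SD, n = 3 guides) and SYVN1, a ligase of endoplasmic reticulum-associated degradation, -0.34. Both were called lower, SYVN1 no longer with scaling over all guides. These were 2 of the 13 genes, where 17.5% of all genes were called lower. Under the drugs the value of UBR4 against untreated cells was -0.18 for erlotinib and -0.24 for osimertinib, on the other side of 0 from the pair, and was not called.

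The 21 genes whose products are described as HUWE1 substrates had medians of -0.05 under erlotinib and -0.02 under osimertinib against untreated cells. The guide-level edgeR fit called 1 of the 21 lower under erlotinib and 1 under osimertinib, as did DESeq2. Of all genes, edgeR called 0.518% lower under erlotinib and 1.5% under osimertinib. The substrate gene called is not reported here. MCL1 had -0.43 ± 0.72 under erlotinib and -0.53 ± 0.52 under osimertinib (SD, n = 3 guides) and was not called in either by the guide-level edgeR fit or DESeq2, but was called lower in both with counts summed per gene (-0.53 under erlotinib and -0.36 under osimertinib) and, with 2 guides, at an unadjusted threshold of 0.05. That threshold also gave SHOC2 lower under both drugs, CHEK1 and WIPI2 lower under erlotinib and ZBTB17 higher under osimertinib. MYC had -0.11 ± 0.15 under erlotinib and 0.15 ± 0.28 under osimertinib and was not called in either. With scaling over all guides ZBTB17, a transcription factor that binds MYC, was called higher under osimertinib (0.27 ± 0.23 in the scaling to non-targeting guides, not called). No gene of the 4 lists had a value as high as that of HUWE1 under either drug against untreated cells. Against T0, 12 of the 21 were called lower under erlotinib, where 19.6% of all genes were, 9 under osimertinib, where 27% were, and 7 in untreated cells, where 17.5% were. Their medians were -0.38 under erlotinib, -0.27 under osimertinib and -0.21 in untreated cells, beside -0.16, -0.16 and -0.15 over all genes. In untreated cells the lowest values were those of TOPBP1 (-0.84), MYC (-0.77), MFN2 (-0.70) and ZBTB17 (-0.55). With scaling over all guides 2 were called lower under erlotinib, 6 under osimertinib and 4 in untreated cells, the last being TOPBP1, MFN2, ZBTB17 and BRCA1. Of all 17761 genes, that scaling called 939 lower under erlotinib, 1519 under osimertinib and 1067 in untreated cells.

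Neighbours on the chromosome were examined because a guide's abundance can also follow the copy number of the site cut, which was not measured here. C16orf72 lies on chromosome 16 with the tested genes USP7 and CARHSP1 on one side and GRIN2A and ATF7IP2 on the other (order in the RefSeq gene table of GRCh38.p14). Against untreated cells, these 4 genes had values between -0.12 and 0.005 under erlotinib and between 0.03 and 0.07 under osimertinib, and were not called. Of its 20 nearest tested genes, NUBP1 was called higher under erlotinib (0.73 ± 0.41) and ALG1 was called lower under osimertinib (-0.53 ± 0.12), though not with DESeq2, with medians of -0.001 under erlotinib and 0.06 under osimertinib. NUBP1 had 0.35 ± 0.31 under osimertinib and was called higher there with scaling over all guides, with counts summed per gene and at the unadjusted threshold, but not with the guide-level fit scaled to non-targeting guides or with DESeq2. Against T0, USP7 was called lower in untreated cells (-0.33 ± 0.24, beside -0.32 for C16orf72) and under osimertinib (-0.25 ± 0.16). Of the 20 neighbours of C16orf72, 4 were called lower in untreated cells and 3 under osimertinib, where 17.5% and 27% of all genes were.

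HUWE1 lies on the X chromosome between HSD17B10 and RIBC1 on one side and PHF8 and FAM120C on the other. Against untreated cells, these 4 genes had values between -0.20 and 0.08 under erlotinib and between -0.20 and -0.08 under osimertinib, and were not called. Of its 20 nearest tested genes, SMC1A, a cohesin subunit, was called higher under erlotinib (0.48 ± 0.43), and the medians were -0.07 under erlotinib and -0.10 under osimertinib. SMC1A had 0.35 ± 0.17 under osimertinib and was called higher there with counts summed per gene and at the unadjusted threshold, but not with the guide-level edgeR fit under either scaling or with DESeq2. Against untreated cells, neither set of neighbours was shifted as a whole to the level of C16orf72 or HUWE1. Under osimertinib against T0, the median of the HUWE1 neighbours was -0.26, beside -0.27 for HUWE1 and -0.16 over all genes. Of these 20 neighbours 9 were called lower there and 0 higher, where 27% of all genes were called lower.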

How the data were processed

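Deposited by the authors was 1 table of raw, unnormalized read counts, with a row for each guide. Per the methods, guide inserts were recovered from genomic DNA by PCR, and trimmed reads were assigned to the library allowing a single mismatch. The sources disagree on the aligner: the methods name Bowtie2, the submitters' processing notes Bowtie 1.3.1. Of 71090 guides, 4 under 1 damaged gene name were left out. Guides in the lowest 5% by mean count (under 46.0 reads) were removed, which left 67531, including 138 non-targeting guides. edgeR 4.0.16 in R 4.3.3 fitted all 8 libraries with 1 term for group (TMM scaling over the non-targeting guides, common dispersion 0.00543, 4 residual degrees of freedom). The procedure was tested on simulated counts. Gene values are medians over at least 2 kept guides, and 17506 of 17761 genes matched the RefSeq table.

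Alternatives were TMM over all guides, no filter, a filter of the lowest 20%, only the groups compared, means over guides, summed counts per gene, DESeq2 1.42.0, a replicate block and leaving out each library. The members and lists were chosen with earlier results of these data known. Named from the lists were up to 4 called genes a comparison with the largest values, the 2 nearest neighbours on each side, the 5 nearest profiles, and MYC and MCL1. Some genes that this rule names, and 1 list, are not reported here. Other genes named beside the lists, including those at an unadjusted threshold or under another scaling, were chosen after their values were seen.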

Additional observations from a re-analysis of the deposited data

How the results depend on the processing

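Each group had 2 libraries, and no member value that was called changed sign. Over all kept guides, the spread between the libraries of a group exceeded that of counting alone (chi-square per degree of freedom of 2.71 to 5.18). What limited the calls was not tested. Scaling by TMM over all guides moved the median of all genes by over 0.1 in each T0 comparison, to 0.013 in untreated cells, 0.007 under erlotinib and 0.014 under osimertinib (-0.15, -0.16 and -0.16 in the scaling to non-targeting guides), so that those values are best read against it. It gave, in untreated cells against T0, -0.15 for C16orf72 with 1 guide lower and -0.44 for HUWE1, with 26 genes called higher and 1067 lower (main counts 0 and 3107, with no gene called higher by DESeq2). Under erlotinib against T0 it gave 0.23 for C16orf72, 0.080 for HUWE1, 83 genes higher and 939 lower (24 and 3483). Under osimertinib against T0 it gave 0.49 for C16orf72, -0.091 for HUWE1 with 0 guides lower, 467 genes higher and 1519 lower (73 and 4796). Under osimertinib against untreated cells 2 HUWE1 guides were called. With no filter C16orf72, then with guide 4, had -0.41 in untreated cells against T0. Without the lowest 20% of guides, 55 genes were lower under erlotinib against untreated cells (92), 2 HUWE1 guides were higher and 145 genes lower under osimertinib (267), 2995 were lower under osimertinib against T0, and 6 were higher in erlotinib against osimertinib (12). Fitting only the groups compared gave 104 genes lower under osimertinib against untreated cells and 2 higher in erlotinib against osimertinib. Means over guides gave C16orf72 0.14 under erlotinib and 0.41 under osimertinib against T0. Summed counts, which test each gene once, gave 10 genes higher and 9738 lower in untreated cells against T0, 1008 and 896 under erlotinib and 1241 and 1635 under osimertinib against untreated cells (231 and 92, 209 and 267), 82 and 10119 under erlotinib and 242 and 10153 under osimertinib against T0, 354 and 167 in erlotinib against osimertinib (12 and 4), and 0.38 for C16orf72 under osimertinib against T0. DESeq2 gave 51 genes lower under erlotinib and 124 under osimertinib against untreated cells, 0 guides of C16orf72 higher and 2195 genes lower under erlotinib against T0, and 2 genes higher in erlotinib against osimertinib. The cause of these differences was not tested.

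Leaving out each library in turn gave the following ranges. In untreated cells against T0, HUWE1 had -0.67 to -0.52, C16orf72 had 1 to 2 guides called and 1528 to 4081 genes were lower. Under erlotinib against untreated cells, C16orf72 had 0.40 to 0.56 with 0 to 3 guides called, HUWE1 had 0.37 to 0.57 with 1 to 4, and 82 to 359 genes were higher and 26 to 169 lower. Under osimertinib against untreated cells, C16orf72 had 0.64 to 0.86, HUWE1 had 0.28 to 0.43 with 0 to 2 guides called, and 91 to 248 genes were higher and 82 to 297 lower. Under erlotinib against T0, C16orf72 had -0.010 to 0.15 with 0 to 1 guides called, and 11 to 28 genes were higher and 1228 to 4547 lower. Under osimertinib against T0, C16orf72 had 0.27 to 0.44 with 1 to 3 guides called, HUWE1 had -0.28 to -0.17 with 0 to 2, and 36 to 84 genes were higher and 2052 to 4709 lower. In erlotinib against osimertinib, C16orf72 had -0.37 to -0.21 and HUWE1 0.023 to 0.20, and 2 to 26 genes were higher and 1 to 9 lower.

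Replicate numbers did not pair the libraries, as deviations from the group means of same-numbered libraries correlated at -0.003 to 0.010 across guides. A replicate block gave 0.49 for C16orf72 and 0.45 for HUWE1 under erlotinib and 0.79 and 0.37 under osimertinib against untreated cells, and changed no count of called member guides.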
